A study of Rattus norvegicus with 12 samples.

Results

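Rats labelled as high responders to 100 Hz electroacupuncture analgesia were compared with rats labelled as non-responders, by the RNA of the arcuate nucleus. The comparison takes in 6 of the study's 12 arrays, chosen by their titles: 3 high responders (100Hz_HR) and 3 non-responders (100Hz_NR). All were Sprague-Dawley rats that received 100 Hz electroacupuncture, electrical stimulation of needles at acupuncture points, for 30 min, then a nociceptive test, and were returned to the home cage for 1 h before the tissue was taken. Each rat's RNA was labelled with Cy3 and hybridised on its own 2-colour cDNA array against a Cy5-labelled mixture of RNA from 3 control rats that stayed in their cages without stimulation. All arrays share this mixture, which is 1 control sample. The other 6 arrays hold high responders and non-responders to 2 Hz stimulation (2Hz_HR and 2Hz_NR, 3 rats each), handled in the same way. The treatment text calls all the rats sensitive, so the class rests on the titles and the responder label. The control RNA is called arcuate in its source name and DH in its extraction text. The labels give no age.

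The arcuate nucleus lies at the base of the hypothalamus. Its pro-opiomelanocortin neurons are the main brain source of beta-endorphin, an opioid peptide that they release in the midbrain periaqueductal gray, a relay that inhibits pain signals in the spinal cord. Other arcuate neurons make neuropeptide Y and agouti-related peptide and govern feeding, and others control the pituitary. In rats, analgesia from low-frequency electroacupuncture is known to depend on beta-endorphin and enkephalin, and that from high-frequency stimulation on dynorphin. The files name each feature, a spotted cDNA, only by its place on the slide. No table used here links a feature to a gene, so no gene name, gene list or cell type marker could be read, the tissue could not be checked against its markers, and no sequence can be shown. In dissected tissue, fewer cells of a type and less RNA per cell cannot be told apart.

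Values below are log2 ratios of the stimulated rat over the control pool, from the authors' value table with its sign reversed. A value in all 6 arrays was present for 9563 of the 11257 features in that table. Of these, 7715 lay above the local background in Cy3 and Cy5 on all 5 arrays whose spot files are their own, and are called features above background. The listed Cy3 spot file of 100Hz_NR replicate 1 is a copy of that of 2Hz_HR replicate 1. At bright spots the column of that array correlated with its listed files at r = 0.23, against 0.97 to 0.99 on the other 5 arrays, so only the value table was used for it. Median intensities were 425 to 598 in Cy3 on 5 arrays and 423 to 578 in Cy5 on 6. Below, the day of quantification means the day in the file headers, apart from the year. Replicates 1 and 2 of 100Hz_HR share 1 day and the other 4 arrays another. The year in the headers differed between the classes, so year and class cannot be told apart. Replicate 3 of 100Hz_HR thus has the day of the 100Hz_NR arrays but not their year. Whether these arrays were quantified together is not known.

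The departure of single rats from the pool did not separate the classes. The SD of the log2 ratio over 9563 features was 0.37, 0.50 and 0.49 in 100Hz_HR replicates 1, 2 and 3, and 0.57, 0.38 and 0.42 in 100Hz_NR replicates 1, 2 and 3. The widest array was a non-responder and the narrowest a high responder, and the ranges of the classes overlapped. The means were 0.46 ± 0.07 (SD, n = 3) in 100Hz_HR and 0.46 ± 0.10 (SD, n = 3) in 100Hz_NR, a difference of -0.00035 (exact permutation test, two-sided, p = 1.00). With 3 rats against 3 the smallest p this test can give is 0.1. Its sign turned without 100Hz_HR replicate 1 (0.04), without 100Hz_NR replicate 1 (0.06) and among features above background (0.02).

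Counts of features at least 1.5-fold from the pool overlapped in the same way. In 100Hz_HR replicates 1, 2 and 3, 450, 1045 and 809 features were higher than the pool. In 100Hz_NR replicates 1, 2 and 3, 773, 546 and 556 were higher. The counts of lower features were 508, 444 and 703 in 100Hz_HR and 1059, 341 and 575 in 100Hz_NR. Replicate 2 of 100Hz_HR was the most lopsided of the 6 arrays towards higher values and 100Hz_NR replicate 1 towards lower ones. The mean higher count was 768 ± 300 in 100Hz_HR against 625 ± 128 in 100Hz_NR (SD, n = 3 each, exact permutation p = 0.60). The mean lower count was 552 ± 135 against 658 ± 366 (SD, n = 3 each, exact permutation p = 0.80). The smallest p these tests can give is 0.1, so they could not have called a difference. Over the 4 such measures tested, every Benjamini-Hochberg adjusted exact p was 1.00.

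**Figure D1:**
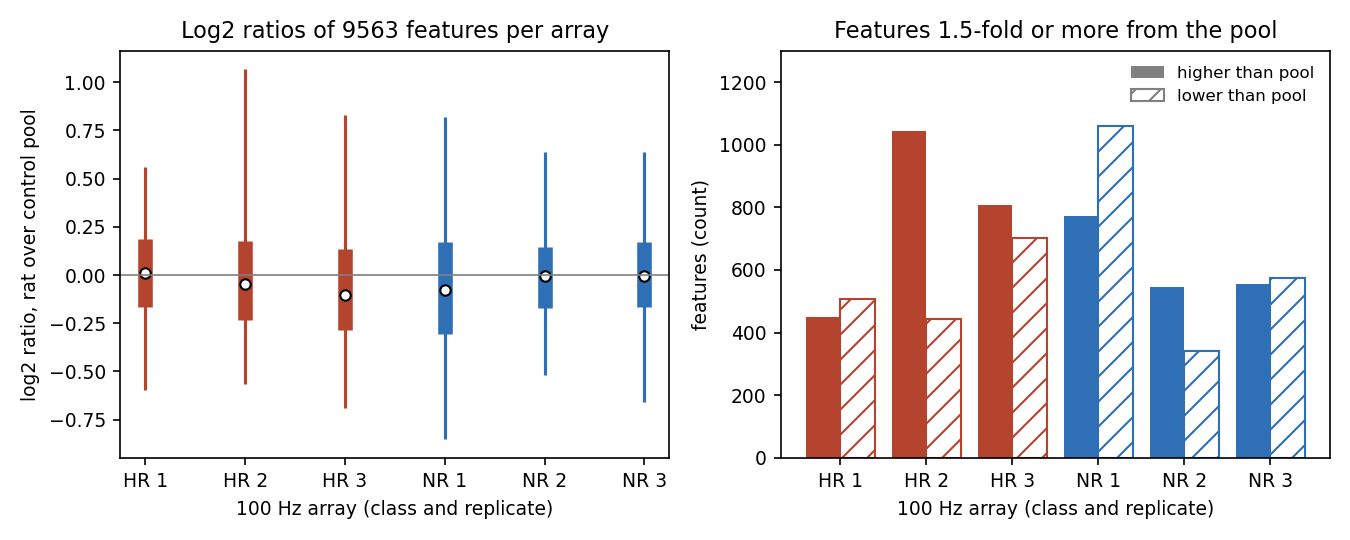
Left, the log2 ratio of rat over control pool on each 100 Hz array over 9563 features, with the median (white point), the interquartile range (thick bar) and the 5th to 95th percentile (thin line). Right, the number of features at least 1.5-fold higher (filled) or lower (hatched) than the pool; the counts run from 341 to 1059 and the classes overlap.

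Each rat's closest profile was that of a rat of the other class. Over all 9563 features, 100Hz_HR replicate 1 correlated most closely with 100Hz_NR replicate 3 (Pearson's r = 0.52), 100Hz_HR replicate 2 with 100Hz_NR replicate 2 (r = 0.43) and 100Hz_HR replicate 3 with 100Hz_NR replicate 1 (r = 0.40). For 6 of 6 arrays the closest array was of the other class, which offers each array 3 candidates against 2 in its own. The 3 pairs within 100Hz_HR had r from 0.03 to 0.24 and the 3 pairs within 100Hz_NR from 0.20 to 0.30, while the 9 pairs across the classes ran from -0.02 to 0.52, so that the lowest pair was across the classes too. These correlations are across features, which are not independent replicates, and all arrays share the pool, so they are given as a description.

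Among the 7715 features above background the closest array was likewise of the other class for 6 of 6. There 100Hz_HR replicate 1 and 100Hz_NR replicate 3 had r = 0.67, whereas 100Hz_HR replicates 1 and 2 ran against each other at r = -0.26. Replicate 2 of 100Hz_HR and replicate 3 of 100Hz_NR also opposed each other, at r = -0.29. In the spot files after loess normalization, on the 5 arrays with their own files, the closest array was again of the other class for 5 of 5, at r = 0.62 for 100Hz_HR replicate 1 with 100Hz_NR replicate 3. Replicate 3 of 100Hz_HR, whose closest array in the value table was 100Hz_NR replicate 1, was there closest to 100Hz_NR replicate 3, at r = 0.35.

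The single channels were compared over features above background, as deviations from the mean over arrays, a centring that by itself makes pairs correlate below 0 on average. The closest array was of the other class for 5 of 5 in Cy3, at r from 0.06 to 0.22. It was also of the other class for 6 of 6 in Cy5, where every array carries the same pool, at r from -0.07 to 0.18. The Cy5 deviations of 100Hz_HR replicate 1 and 100Hz_NR replicate 3 correlated at r = -0.15, and their Cy3 deviations at r = 0.15. For 100Hz_HR replicate 2 and 100Hz_NR replicate 2 the values were 0.18 in Cy5 and 0.22 in Cy3.

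**Figure D2:**
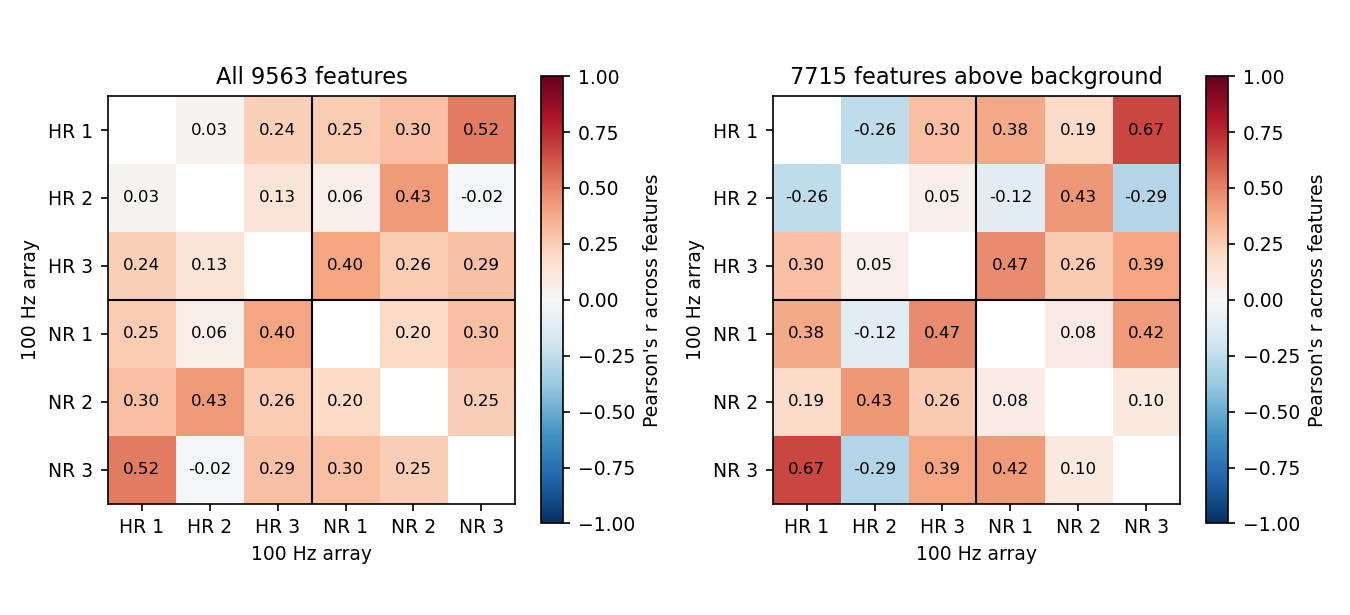
Pearson's r between the log2 ratios of each pair of 100 Hz arrays, over all 9563 features (left) and over the 7715 features above background (right); black lines part the classes. In each panel the highest value of every row lies in the block across classes, up to 0.52 on the left and 0.67 on the right.

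No feature differed between high responders and non-responders at 100 Hz by limma with Benjamini-Hochberg adjustment: 0 of 9563 passed (0%), and the lowest adjusted p was 1.00. Before adjustment 148 features (1.55%) had a p under 0.05. Evenly spread p-values would put a share of 0.05 there, so the 148 are fewer than an even spread gives. Without 100Hz_NR replicate 1, the array with the copied file, 0 passed and 165 had an unadjusted p under 0.05. The first day of quantification holds 2 arrays of 100Hz_HR and none of 100Hz_NR, so it gives no value. With the day as a block, or within the second day alone, the estimate is therefore the same single contrast of 100Hz_HR replicate 3 with the 3 arrays of 100Hz_NR. By limma with Benjamini-Hochberg adjustment 0 passed in either fit, with 447 and 413 features at an unadjusted p under 0.05. In that contrast the high responders have no replication within the day, and the lone rat is assumed to vary like the others, so it says little about the classes.

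The classes did not overlap at 433 features, 4.53% of those tested, 180 of them higher in 100Hz_HR (1.88%) and 253 lower (2.65%). Over the 20 ways to split 6 arrays into 3 and 3, the average share without overlap at a feature is 0.1. The 433 are thus not a count of features that differ between the classes. Over the 9343 features with a value on all 12 arrays, the share without overlap was 4.47% at 100 Hz (1.84% higher and 2.63% lower in the high responders) and 15.8% at 2 Hz (10.5% higher and 5.33% lower). Whether these shares differ was not tested. The same count was taken in the Cy5 channel alone, where every array carries the same RNA. There 545 features, 5.7%, did not overlap between the arrays of the classes (2.28% higher and 3.42% lower on the arrays of 100Hz_HR), and limma with Benjamini-Hochberg adjustment called 0 of 9563, with 146 at an unadjusted p under 0.05. With the day of quantification as a block 9 features passed in this channel, 8 higher and 1 lower, although the RNA was the same. The share in a single channel is not on the scale of the share of log2 ratios, and the 2 are not compared.

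The data limit the size of a difference that could have been seen. The 95% interval of the difference had a median half-width of 0.46 on the log2 scale, 1.38-fold, and for 95% of features it was at most 1.42, or 2.67-fold. Among features above background these were 0.41 (1.33-fold) and 1.03 (2.04-fold). These intervals carry no correction for multiple testing. The middle 90% of the measured differences lay between -0.37 and 0.51, with a median of -0.01. The median within-class SD of single rats was 0.22 in 100Hz_HR and 0.21 in 100Hz_NR, and the median absolute difference between the means was 0.11.

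Large mean differences gathered among dim spots. A difference of at least 1.5-fold was found at 592 features (6.19%), 369 higher in 100Hz_HR (3.86%) and 223 lower (2.33%). With the features split by signal into 3 groups of 3187 or 3188, 443 of these lay among the dimmest, 62 in the middle group and 87 among the brightest. The SD of the difference was 0.43, 0.19 and 0.19 in those groups, and 117, 18 and 13 of the features at an unadjusted p under 0.05 fell in them. The share without overlap was 4.92%, 4.58% and 4.08%. By position, the median difference of the 48 printed blocks ran from -0.13 to 0.06, and the features at an unadjusted p under 0.05 came from 44 of them, with at most 8 in 1 block.

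**Figure D3:**
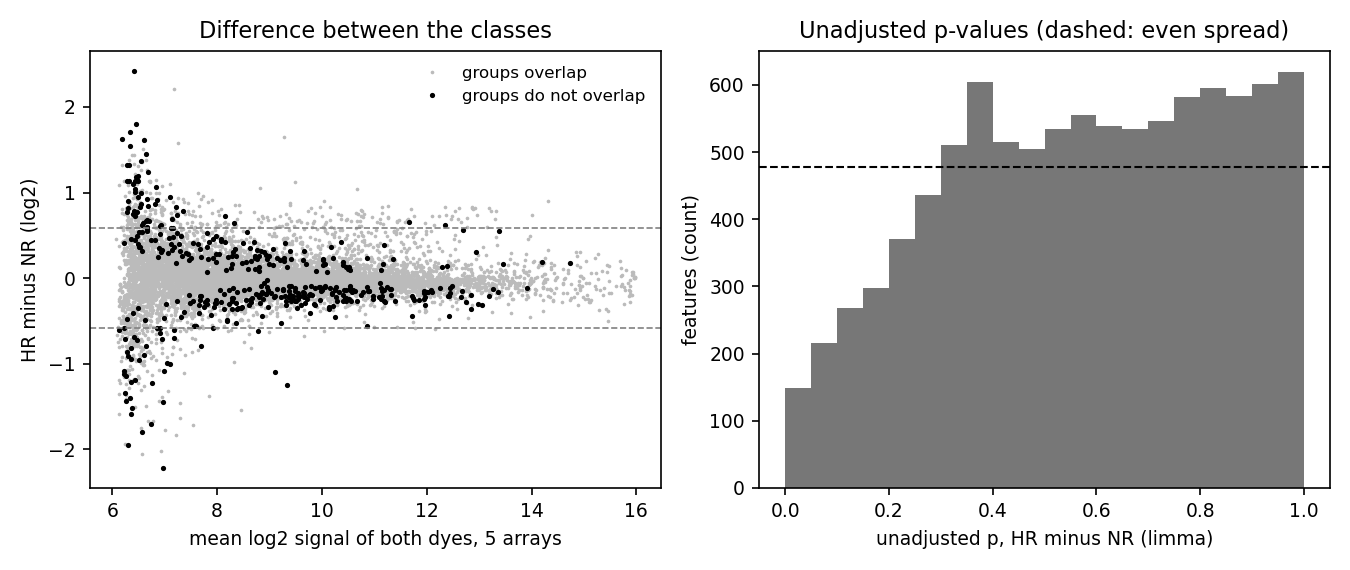
Left, the difference of means of 100Hz_HR and 100Hz_NR (log2) against the mean log2 signal of both dyes on 5 arrays, 1 point per feature; black points are the 433 features at which the classes do not overlap and dashed lines mark 1.5-fold. Right, the unadjusted limma p-values of the 9563 features in equal bins, with a dashed line where evenly spread values would lie; 148 fall under 0.05.

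Among features above background, the means differed at least 1.5-fold at 197 (2.55%), 161 higher in 100Hz_HR (2.09%) and 36 lower (0.467%). These sets were chosen by the difference itself, so their 100 Hz values are a description. The difference at the 161 higher features rested mainly on a high 100Hz_HR replicate 2 and a low 100Hz_NR replicate 3. Without the first 39 of the 161 stayed at least 1.5-fold higher, and without the second 43. Their median log2 ratio was -0.94, 1.495 and -0.37 in 100Hz_HR replicates 1, 2 and 3, and -0.66, -0.06 and -1.10 in 100Hz_NR replicates 1, 2 and 3. Replicate 2 of 100Hz_HR stood 2.82-fold above the pool and was the highest of the 6 arrays at 120 of the 161, or 74.5%. Replicate 1 of the same class stood 1.92-fold below the pool, close to 100Hz_NR replicate 3 at 2.15-fold below. The classes did not overlap at 7 of the 161, against 321 of all 7715 (4.16%; 1.36% higher and 2.8% lower).

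The same features moved together in the 2 Hz rats, which had no part in choosing them. Their median log2 ratio was 1.45 on 2Hz_NR replicate 1, 2.73-fold above the pool, and -0.71 and -0.61 on 2Hz_HR replicates 3 and 2. It was -0.42 on 2Hz_NR replicate 3, -0.10 on 2Hz_HR replicate 1 and 0.11 on 2Hz_NR replicate 2. Over the 12 rats the set was thus high in 1 high responder to 100 Hz and in 1 non-responder to 2 Hz. Over all 7715 features above background, the medians on the 12 arrays lay between -0.09 and 0.01.

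Where both channels could be read, the 161 varied more between arrays in Cy3, the rats' own channel, than in Cy5. Cy3 could not be read for 100Hz_NR replicate 1, and neither channel is given for the 2 Hz arrays. The part of each channel was not tested. On the 5 arrays with their own files, the median Cy3 deviation of the 161 from the mean over arrays was -0.52, 1.45 and -0.15 in 100Hz_HR replicates 1, 2 and 3 and 0.17 and -0.75 in 100Hz_NR replicates 2 and 3. In Cy5, the median deviation on the 6 arrays lay between -0.07 and 0.03. The 161 lay in 41 of the 48 blocks, with at most 13 in 1 block. The count depended on which rats were included. Without 100Hz_HR replicate 1, 2 or 3, 367, 77 and 260 features were at least 1.5-fold higher in 100Hz_HR, of which 157, 39 and 133 were among the 161. Without 100Hz_NR replicate 1, 2 or 3, 148, 310 and 66 were, of which 121, 149 and 43 were among the 161. The excess of higher over lower features turned without 100Hz_NR replicate 3, with 66 higher and 79 lower. Without the 161 features the closest array was still of the other class for 6 of 6 arrays, with r = 0.59 between 100Hz_HR replicate 1 and 100Hz_NR replicate 3.

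The 36 lower features rested largely on another single rat. Their median log2 ratio was 0.94 on 100Hz_NR replicate 1, and -0.01 and 0.13 on 100Hz_NR replicates 2 and 3. It was -0.20, -0.34 and -0.27 on 100Hz_HR replicates 1, 2 and 3, and between -0.25 and -0.00 (-0.0044) on the 2 Hz arrays. Here the pool channel moved too: the median Cy5 deviation of the 36 was -0.28 on 100Hz_NR replicate 1 and between -0.04 and 0.18 on the other 5 arrays, and its part in the result was not tested. Without 100Hz_NR replicate 1, whose Cy3 file is not its own, 23 features were at least 1.5-fold lower in 100Hz_HR, 9 of them among the 36. Without 100Hz_NR replicate 2 or 3, 124 and 79 were, and without 100Hz_HR replicate 1, 2 or 3, 63, 49 and 91 were. The classes did not overlap at 9 of the 36, against 2.8% lower without overlap over all 7715 features above background. The 36 were chosen by the difference, which itself favours classes that do not overlap.

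**Figure D4:**
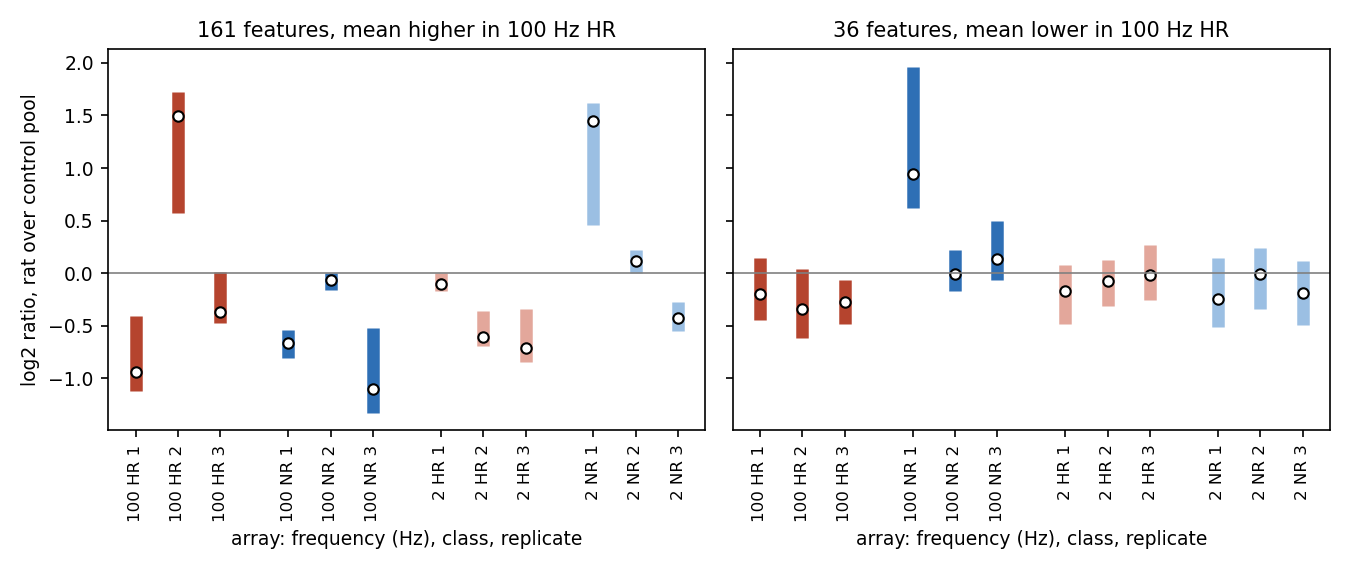
Median (white point) and interquartile range (bar) of the log2 ratio, rat over pool, on all 12 arrays, for the 161 features above background with a mean at least 1.5-fold higher in 100Hz_HR (left) and the 36 at least 1.5-fold lower (right). On the left 100Hz_HR replicate 2 (1.495) and 2Hz_NR replicate 1 (1.45) stand apart; on the right 100Hz_NR replicate 1 (0.94) does.

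Of the features above background, 50 (0.648%) had an unadjusted p under 0.05, and at 41 of them the classes did not overlap, 17 higher and 24 lower in 100Hz_HR; 2 of the higher and 8 of the lower reached 1.5-fold. The 2 with the largest mean difference in each direction are given with their values as a description, since none passed the adjusted test.

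Feature Sr09Sc01R07C16 (row 7 and column 16 of the block in block row 9 and block column 1) had log2 ratios of 0.50, 1.00 and 0.51 in 100Hz_HR replicates 1, 2 and 3 and of 0.44, -0.22 and -0.17 in 100Hz_NR. The classes nearly met, at 100Hz_NR replicate 1. It was a bright spot, with Cy3 signals of 4823, 3411 and 3028 in 100Hz_HR and of 2769 and 2117 in 100Hz_NR replicates 2 and 3. The mean was 0.67 ± 0.28 (SD, n = 3) against 0.02 ± 0.37 (SD, n = 3), a 1.57-fold difference (limma and Benjamini-Hochberg adjusted p = 1.00). Without 100Hz_NR replicate 1 the log2 difference was 0.87 (limma and Benjamini-Hochberg adjusted p = 1.00).

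Feature Sr12Sc03R10C14 moved in nearly the same way. Its log2 ratios were 0.72, 0.98 and 0.66 in 100Hz_HR and 0.56, 0.06 and -0.13 in 100Hz_NR. Its mean was 0.79 ± 0.17 (SD, n = 3) against 0.16 ± 0.36 (SD, n = 3), 1.54-fold higher in 100Hz_HR (limma and Benjamini-Hochberg adjusted p = 1.00). Both features were also lowest of the 12 rats on the same 2 Hz array, 2Hz_HR replicate 2, at -0.94 for Sr09Sc01R07C16 and -0.74 for Sr12Sc03R10C14. The other 2 rats of 2Hz_HR were above the pool at both, with log2 ratios from 0.53 to 0.98, and the 3 of 2Hz_NR lay between 0.40 and 0.72. The 2 Hz mean of the high responders minus that of the non-responders was -0.31 for Sr09Sc01R07C16 and -0.40 for Sr12Sc03R10C14. Neither passed (limma and Benjamini-Hochberg adjusted p = 0.887 and 0.839), and 2Hz_HR replicate 2 was the only 2 Hz rat below the pool at both. The top 2 Hz value was that of 2Hz_HR replicate 3 at both features, 0.84 and 0.98. The test of a change of the difference with frequency did not pass (limma and Benjamini-Hochberg adjusted p = 0.794 for each).

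Feature Sr12Sc03R13C01 had log2 ratios of -1.16, -0.52 and -0.69 in 100Hz_HR and of 1.14, -0.48 and 0.72 in 100Hz_NR. Replicate 2 of 100Hz_NR lay close to the nearest high responder, and the top value was that of 100Hz_NR replicate 1. The mean was -0.79 ± 0.33 (SD, n = 3) against 0.46 ± 0.84 (SD, n = 3), 2.38-fold lower in 100Hz_HR (limma and Benjamini-Hochberg adjusted p = 1.00). The 2 Hz rats lay between -1.43 and -0.17, below the pool on 6 of 6 arrays. Without 100Hz_NR replicate 1 the log2 difference was -0.91 in the value table and -0.40 in the Cy3 channel alone (limma and Benjamini-Hochberg adjusted p = 1.00 for each), against -1.25 with all 6 arrays.

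Feature Sr02Sc04R12C12 had log2 ratios of -0.41, -0.76 and -0.75 in 100Hz_HR and of 0.33, 0.12 and 0.88 in 100Hz_NR, so the classes lay on either side of the pool. The mean was -0.64 ± 0.20 (SD, n = 3) against 0.44 ± 0.40 (SD, n = 3), 2.12-fold lower in 100Hz_HR (limma and Benjamini-Hochberg adjusted p = 1.00). The spot was dim, with Cy3 signals of 312 to 334 over local backgrounds of 256 to 273 on the 5 arrays. Without 100Hz_NR replicate 1 the log2 difference was -1.14 in the value table, -0.53 in the spot files after global loess and -0.36 in the Cy3 channel alone (limma and Benjamini-Hochberg adjusted p = 1.00 for each). The 2 Hz rats lay between -1.16 and -0.02, on the side of the 100 Hz high responders.

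**Figure D5:**
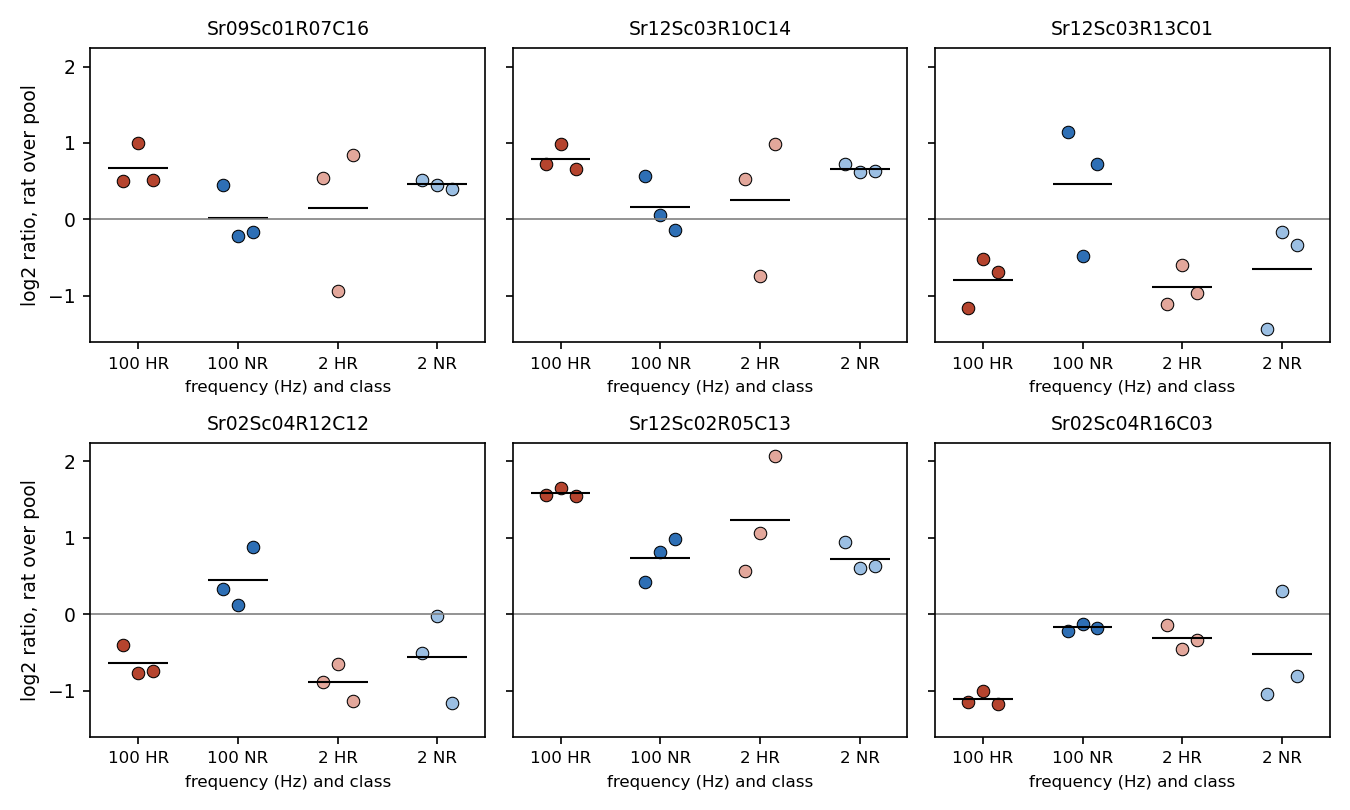
Log2 ratio, rat over pool, of 6 features on all 12 arrays, grouped by frequency and class; each point is 1 rat in replicate order and each line the mean of 3. The first 4 panels hold the features with the largest mean difference between 100Hz_HR and 100Hz_NR among the 41 described in the text. The last 2 hold features called against the pool in 100Hz_HR only. Their deposited values rest on at least 1 dye that was mostly not above background, and at Sr02Sc04R16C03 on 2 such dyes.

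Each class was also set against the pool. In 100Hz_HR 5 of 9563 features (0.0523%) passed, 4 higher (0.0418%) and 1 lower (0.0105%), and in 100Hz_NR 2 passed (0.0209%), both higher and both among the 5. Such a call rests on 1 pool labelled with 1 dye throughout: variation among control rats is not in it, and dye bias stays in it. At an unadjusted p under 0.05 there were 1312 (13.7%) and 1145 (12%) features. The calls held poorly when arrays were left out: in 100Hz_HR 0 passed without any 1 of its own 3 rats or without 100Hz_NR replicate 2 or 3, and 2 without 100Hz_NR replicate 1. In 100Hz_NR 0 passed without any 1 of its own 3 rats or without 100Hz_HR replicate 1 or 3. With all 12 arrays sharing 1 estimate of the spread, 105 and 93 passed.

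The 2 features called in both classes had overlapping values in them. Feature Sr02Sc02R03C06 had log2 ratios of 1.74, 2.45 and 1.90 in 100Hz_HR and of 2.14, 2.17 and 2.16 in 100Hz_NR. Its limma and Benjamini-Hochberg adjusted p was 0.0239 against the pool in 100Hz_HR and 0.0211 in 100Hz_NR, and the difference between the classes was -0.12 (SE 0.20). Feature Sr08Sc02R12C12 had log2 ratios of 1.44, 1.66 and 1.62 in 100Hz_HR and of 1.85, 1.54 and 1.45 in 100Hz_NR, with a difference of -0.04 (SE 0.15). The 2 Hz rats were above the pool at both features as well. Their log2 ratios ran from 1.73 to 2.61 at Sr02Sc02R03C06 and from 0.80 to 2.03 at Sr08Sc02R12C12.

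The other 3 calls were in 100Hz_HR only, and none of them passed the adjusted test between the classes. No size is given for them, since at least 1 dye was not above background on most arrays. Feature Sr12Sc02R05C13 was higher than the pool in 100Hz_HR (limma and Benjamini-Hochberg adjusted p = 0.0239) and did not pass in 100Hz_NR (limma and Benjamini-Hochberg adjusted p = 0.173). Its Cy5 signal was above background on 2 of 6 arrays, 1 in each class. Feature Sr02Sc04R16C03 was lower than the pool in 100Hz_HR (limma and Benjamini-Hochberg adjusted p = 0.0239) and had the smallest unadjusted p of the class comparison. Its Cy3 signal was above background on 0 of 5 arrays and its Cy5 signal on 1 of 6, so neither dye could be read on most arrays. Feature Sr04Sc02R05C11 was higher than the pool in 100Hz_HR (limma and Benjamini-Hochberg adjusted p = 0.0475), with Cy5 above background on 1 of 6 arrays.

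Whether the difference between the classes at 100 Hz departs from that at 2 Hz was tested as an interaction over all 12 arrays. By limma, 0 of 9343 features passed after Benjamini-Hochberg adjustment, the lowest adjusted p being 0.794. An unadjusted p under 0.05 was found at 333 (3.56%). In the same fit, the class difference had 251 features (2.69%) at an unadjusted p under 0.05 at 100 Hz and 314 (3.36%) at 2 Hz, with 0 called by limma with Benjamini-Hochberg adjustment at either frequency. The interval of the interaction had a median half-width of 0.54 on the log2 scale, 1.45-fold. With the day of quantification as a block 1 feature passed in the interaction.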

How the data were processed

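Per the labels, rat RNA was labelled with Cy3 and the control mixture with Cy5; ImaGene quantified the scans (version 4.2 per the labels, 5.1 per the file headers). In the deposited files of spots, signal and local background are intensity values, not normalized. The authors' value table holds log2 values; over bright spots they ran opposite to log2(Cy3/Cy5) of the arrays' own files (r -0.99 to -0.97 on 5 arrays), so they are log2(Cy5/Cy3) and were reversed. The authors' normalization and centring are not given in the sources used here; column medians as deposited were -0.01 to 0.09. A spot without a value was marked empty or poor in 99.3% to 100% of cases.

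The 3 arrays of each class were fitted with lmFit and eBayes of limma 3.58.1 in R 4.3.3, two-sided, over features with a value on all 6. Calls needed an adjusted p (Benjamini-Hochberg) under 0.05. The interaction used all 12 arrays. Above background means Signal Mean over mean background plus 2 background SDs. For single channels, normexp (offset 50) and quantile normalization were used. The fit was tested on simulated data. Named features were the 2 higher and 2 lower with the largest mean difference at an unadjusted p under 0.05 without overlap, above background on 5 arrays. Without gene names, the gene lists and cell type markers chosen (opioid, activity-induced, arcuate and anti-opioid peptide genes and markers of 9 cell types or regions) gave no result. Features called against the pool were named after their values were seen. The comparison, lists and rules were chosen with earlier results of these data known. Alternatives changed the arrays, filter, centring, scaling, groups in the fit, blocks, weights, moderation and source of values.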

Additional observations from a re-analysis of the deposited data

Results flagged for a closer look

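Feature Sr02Sc04R12C12 was below the pool on 3 of 3 arrays of 100Hz_HR and above it on 3 of 3 of 100Hz_NR, a log2 difference of -1.08. The difference itself did not pass (limma and Benjamini-Hochberg adjusted p = 1.00), and over the 20 alternatives its values ran from -1.25 to -0.36. The feature was chosen for classes that did not overlap, so leaving out arrays could not turn the sign of its difference. Its spot was dim, and the part of that in the difference was not tested.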

How the results depend on the processing

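The count between 100Hz_HR and 100Hz_NR was 0 in the main setting and under all 21 alternatives, while features at an unadjusted p under 0.05 ran from 63 to 447 around the main 148. The 4 features named for their difference passed under none of 20 alternatives. They kept their sign under all 20, but they were chosen for classes that did not overlap. Leaving out arrays therefore could not turn the sign, and the kept sign is no support for a difference. Same-numbered arrays of the classes deviated from their class means with r of -0.10, 0.39 and -0.04. For arrays of different number r ran from -0.26 to 0.33, so the highest value was that of the replicate 2 arrays. The labels do not say what a shared number means, and these values cannot show whether the rats were paired. With the replicate block the count was 0 between the classes (213 at an unadjusted p under 0.05), 0 in the interaction, 0 in the pool channel, and 0 for each class against the pool.

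Against the pool, the main counts were 5 in 100Hz_HR and 2 in 100Hz_NR. In 100Hz_HR, 2 passed with the filter on dim features, 1 (lower) with quantile normalization, 0 with trended and robust moderation, 0 with global loess and 1 with print-tip loess of the spot files, and 105 with all 12 arrays in the fit. In 100Hz_NR, 0 passed with quantile normalization, with trended and robust moderation, and with either loess, and 93 with all 12 arrays. Other settings stayed near the main counts. In 100Hz_HR 7 passed with columns centred on their medians, 4 with array weights and 4 with the day of quantification as a block. In 100Hz_NR 2 passed with the filter, 2 with centred columns and 2 with array weights. Leaving out 1 array gave 0 to 2 in each class. The interaction had 1 call and the pool channel 9 with the day of quantification as a block, and 0 in each run without 1 array. The difference in spread per array, -0.00035, turned to 0.0175 with the filter and ran from -0.0409 to 0.0586 without 1 array. The causes were not tested. The dimmest of the 3 signal groups had the widest spread of differences (SD 0.43 against 0.19 and 0.19), and 3 arrays a class limit the precision.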

Other observations

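Of the 11257 features in the value table, 1598 had a value on 1 to 5 of the 6 arrays and 96 on none. A value on all 3 arrays of 100Hz_HR and on none of 100Hz_NR was found at 6 features, and the reverse at 6. A value on all 3 arrays of 100Hz_HR and on at most 1 of 100Hz_NR was found at 90 features, and the reverse at 41. The number of features without a value was 908, 829 and 440 in 100Hz_HR replicates 1, 2 and 3 and 497, 846 and 1145 in 100Hz_NR replicates 1, 2 and 3, so the arrays with the fewest, 100Hz_HR replicate 3 and 100Hz_NR replicate 1, were of different classes. Without both of these arrays limma with Benjamini-Hochberg adjustment called 0 features between the classes, with 238 at an unadjusted p under 0.05.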
